A study of Homo sapiens with 6 samples.

Results

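Box H/ACA snoRNAs were taken as the GENCODE release 44 genes of type snoRNA whose name begins with SNORA, read on the gene's own strand, without SNORA73A and SNORA73B. They came to 212 genes at 209 loci, out of 942 snoRNA genes. Their loci held 4233 of the 176343 positions listed under imbalanced dNTP and 2798 of the 246881 listed under balanced dNTP. The samples were chromatin-associated RNA (caRNA) of HepG2, a human hepatocellular carcinoma line, in 3 replicates. After ligation, every replicate was split over a pair of reverse transcriptions. The imbalanced dNTP group had dATP at 1 mM and the other dNTPs at 2 µM, and the balanced dNTP group, the input, had every dNTP at 1 mM. The labels name no knockdown or drug, and each library came from the same cultured line, so that p-values measure the spread between these samples. RNA under 200 nt had been removed and rRNA depleted before fragmentation, while the median annotated length of the 212 genes was 133 nt and 8 genes reached 200 nt.

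In Nm-mut-seq a 2′-O-methylated (Nm) guanosine, adenosine or cytidine is read as T more often when dATP is in excess of the other dNTPs. The measurement is the mutation ratio T/N, the reads with T over the depth at a position whose reference base is G, A or C. The tables list a position only where reads with T were counted.

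Box H/ACA snoRNAs guide the conversion of uridine to pseudouridine in rRNA and spliceosomal RNAs, in complexes with the pseudouridine synthase dyskerin. Most are cut from introns of host genes and fold into a 5′ hairpin and a 3′ hairpin. A single-stranded hinge with the H box (ANANNA) lies between the hairpins, and a short tail with the ACA box follows the 3′ hairpin. The other large class, box C/D snoRNAs, guides 2′-O-methylation itself through fibrillarin. H/ACA RNAs are best known from the nucleolus, and the related scaRNAs from the Cajal body.

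The RNA sequences of 4 loci are given below as hg38 DNA letters, 5′ to 3′ on the snoRNA strand. Capitals mark the predicted H box and ACA box, found by the rule given with the zones, which may differ from curated boxes. SNORA63 and SNORA8 are shown because they had the highest depth, SNORA24 because its depth differed between the groups, and SNORA62 because it held the highest mutation ratio among called sites that reached 100 reads in every imbalanced library.
SNORA63 (chr3:186787300-186787431, plus strand): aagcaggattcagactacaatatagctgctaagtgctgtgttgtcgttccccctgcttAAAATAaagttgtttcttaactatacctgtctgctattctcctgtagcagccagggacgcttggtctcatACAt
SNORA8 (chr11:93732361-93732499, minus strand): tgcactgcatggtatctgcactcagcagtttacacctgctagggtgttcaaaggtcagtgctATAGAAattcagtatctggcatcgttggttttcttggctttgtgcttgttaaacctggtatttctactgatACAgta
SNORA24 (chr4:118279190-118279320, plus strand): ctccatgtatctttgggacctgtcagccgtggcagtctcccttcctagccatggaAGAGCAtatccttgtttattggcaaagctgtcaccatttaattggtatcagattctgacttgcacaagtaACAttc
SNORA62 (chr3:39411054-39411206, plus strand): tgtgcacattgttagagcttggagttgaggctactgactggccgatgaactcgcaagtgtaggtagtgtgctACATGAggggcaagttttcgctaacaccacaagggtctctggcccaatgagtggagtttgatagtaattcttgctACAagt

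Reads of box H/ACA snoRNAs were concentrated in few loci. Of the 209 loci, 102 had a listed position in either table and 107 had none. Under imbalanced dNTP 101 loci were listed, and 67 of them had at least 20 listed positions, with a mean depth from 26.8 to 1681 reads and a median of 97.6. All 67 lay in host genes, 51 in protein-coding genes and 16 in lncRNA genes, and 42 overlapped an annotated exon of the host. The 2 deepest loci held 23.5% and the 10 deepest 58.7% of the summed depth of the class.

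SNORA63, once named E3 and hosted by the translation factor gene EIF4A2, had mean listed depths of 1755, 1542 and 1746 reads under imbalanced and 3226, 2199 and 2238 under balanced dNTP. SNORA8, hosted by TAF1D, which codes for a subunit of an RNA polymerase I initiation factor, had 1728, 1403 and 1143 reads under imbalanced and 3277, 2047 and 1496 under balanced dNTP. SNORA24 followed with 684, 605 and 695 reads under imbalanced and 1898, 1254 and 1245 under balanced dNTP. The imbalanced libraries were below the balanced ones at SNORA63 and SNORA24 without overlap, whereas at SNORA8 the highest imbalanced value lay above the lowest balanced value. These depths are not scaled to the libraries. The scaled log2 change was 0.02 at SNORA63, -0.03 at SNORA8 and -0.54 at SNORA24. Among the next in depth were SNORA16A in SNHG12, SNORA48 in EIF4A1, SNORA71D and SNORA71B in SNHG17, SNORA62 in RPSA and SNORA57 in CSKMT, whose mean depths under imbalanced dNTP lay between 422 and 637 reads. Where genes of this bulk sample differ in depth, fewer cells with an RNA and less of it per cell cannot be told apart.

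**Figure D1:**
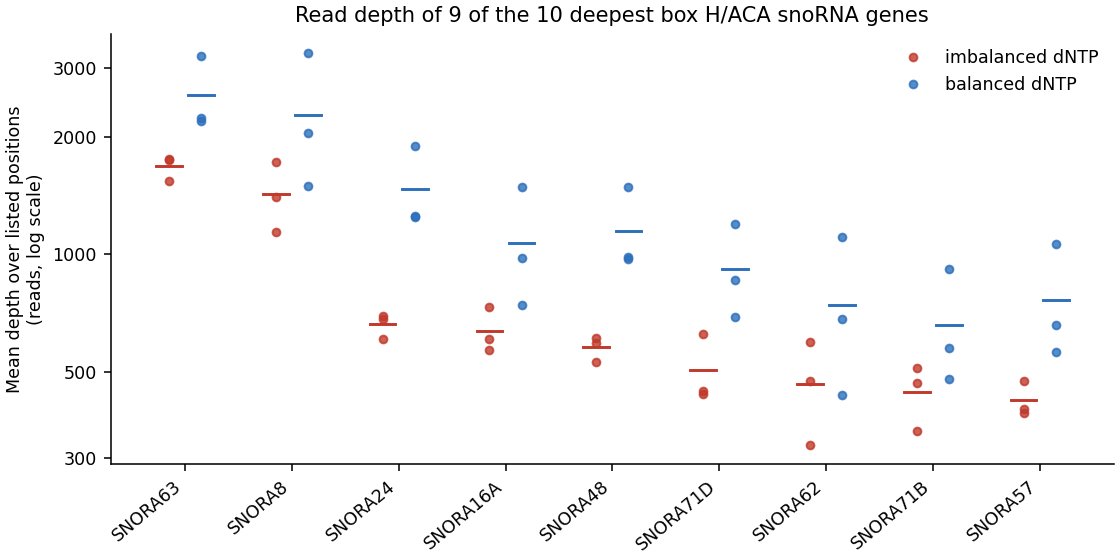
Mean depth over listed positions (reads, log scale) of 9 of the 10 deepest box H/ACA snoRNA genes, with 1 point per library and a line at the mean of 3 libraries. SNORA63 and SNORA8 stand above the other 7 genes plotted in every imbalanced dNTP library, with at least 1143 reads.

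The loci fixed by their older names were shallower. SNORA64 (U64), in RPS2, had mean depths of 75.7, 66.5 and 53.5 reads and 6 called sites. SNORA65 (U65), in RPL12, had 47.2, 36.7 and 49.0 reads and 5 called sites. SNORA74A (U19), in MATR3, had 52.8 to 71.7 reads and 15 called sites, and SNORA74B had 9 listed positions and no called site. The loci named SNORA70 (U70) had no listed position. SNORA71C had 33 listed positions and 2 called sites, and SNORA71E 4 listed positions and none called.

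Depth summed over the listed positions was 17063930 to 22485865 under imbalanced and 22974020 to 34367262 under balanced dNTP. In this sum a read counts once at every listed position that it covers. Box H/ACA loci took 6.84, 6.58 and 4.70% of it under imbalanced dNTP (6.04% ± 1.17, SD, n = 3) and 6.61, 6.38 and 4.57% under balanced dNTP (5.86% ± 1.12). In either group replicate 3 had the lowest share. The groups list different positions, so their shares are not taken over the same set and give no direction of change. Box C/D snoRNAs were the SNORD genes without U3, SNORD118, SNORD13, SNORD14 and SNORD22 genes. These 292 genes, with 5061 positions listed under imbalanced dNTP, took 10.6 to 14.4% and 9.12 to 12.3%. Among hepatocyte genes ALB had 806, AFP 1122, APOB 6226, SERPINA1 242, TF 276 and APOA1 6 listed positions under imbalanced dNTP, while FGB and TTR had 0. PTPRC, CD3E, COL1A1, COL3A1, PECAM1 and VWF, which mark leukocytes, fibroblasts and endothelium, had 0 in either table. Genes for the proteins of the H/ACA complex (DKC1, GAR1, NHP2, NOP10) and its assembly factors (NAF1, SHQ1) had no listed position. TERC, the telomerase RNA and itself an H/ACA RNA, had 30 listed positions, none called, at a mean depth of 21.0 reads. Of 49 scaRNA genes 12 were listed, with 783 positions and 275 called sites.

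To find sites with an excess of T, the criteria of the study other than that on background ratios were applied. In each of the 3 replicates the depth was 10 or more, T was read 3 or more times and T/N was over 3 times the input's. Where a position was not listed under balanced dNTP, the input ratio was taken as 0, so that it passed the last criterion. The omitted criterion sets a site against a spike-in without Nm that was reverse transcribed under imbalanced dNTP. Without it, whether the called sites and the ratios below reflect Nm was not tested. Of the 4233 positions, 2118 were listed in both groups. In box H/ACA loci 2033 of 4233 listed positions were called (48.0%), in 80 loci, against a background of 16.8% of all listed positions. Box C/D snoRNAs had 3391 of 5061 (67.0%). The shares moved with depth. Where every imbalanced library reached 200 reads, 1298 of 1574 box H/ACA positions were called (82.5%), close to the background of 82.9%, and 2492 of 2848 box C/D positions (87.5%). The 10 loci with most called sites held 40.7% of them. Among them SNORA62 had 90, SNORA16A 87, SNORA63 86, SNORA8 85, SNORA48 84, SNORA71D 83, SNORA57 80, SNORA71A 76 and SNORA71B 75. In SNORA63 86 of its 89 G, A and C positions were called.

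By reference base the called sites were 827 G (40.7%, 95% Wilson interval 38.6 to 42.8), 665 C (32.7%, 30.7 to 34.8) and 541 A (26.6%, 24.7 to 28.6). Counted over the positions of each base in loci with a called site, 30.1% of G, 25.8% of C and 20.9% of A were called. The intervals cover counting error only.

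Of 2112 box H/ACA positions that reached 10 reads in each of the 6 libraries, 1818 had a higher T/N under imbalanced dNTP (86.1%; 73.9% of all positions tested) by edgeR's quasi-likelihood test at an adjusted p under 0.05. The test found 0 lower (0.0558% of all positions tested), with 0 lower at an unadjusted p under 0.05, and DESeq2 and Fisher's exact test also found 0. The share of reads with T changed by a median log2 of 4.22 over box H/ACA positions and 3.94 over all positions tested. At the 2118 positions listed in both tables the mean mutation ratio was 4.00, 4.11 and 3.77% under imbalanced dNTP (3.96% ± 0.17, n = 3) and 0.235, 0.246 and 0.235% under balanced dNTP (0.239% ± 0.006). The groups did not overlap, and the difference of 3.72 percentage points ± 0.167 was positive in 3 of 3 pairs. The exact paired permutation test, two-sided, gave p = 0.25, the smallest that 3 pairs allow, and 0.281 after adjustment over 27 comparisons. The same p holds wherever 3 of 3 libraries are named below. Mismatches other than T were 0.242% ± 0.0066 and 0.230% ± 0.012 in the respective groups.

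The bases differed in the size of this signal. Over the shared positions the mean ratio at G was 4.86% under imbalanced and 0.311% under balanced dNTP (861 positions), at A 2.99 and 0.160% (558), and at C 3.63 and 0.214% (699). At low depth only positions with a high ratio are listed, so further comparisons use the 1574 positions of 22 loci that reached 200 reads in every imbalanced library. There the ratio at G was 3.91, 4.17 and 3.81% (3.96% ± 0.19, 589 positions), at C 3.23% ± 0.12 (540) and at A 2.57% ± 0.06 (445). G exceeded A by 1.39, G exceeded C by 0.74 and C exceeded A by 0.66 percentage points, each in 3 of 3 libraries (exact test, adjusted p = 0.281).

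The order of the bases changed with the base before the site. Among G positions of box H/ACA snoRNAs the mean ratio was 1.73% after A, 1.80% after G, 4.48% after C and 6.70% after T (222 positions). With T on both sides it was 8.85% (60 positions) and with T on neither side 1.95% (271). At A the values were 2.15% after A, 1.51% after G, 2.87% after C and 3.98% after T, and at C 2.74, 2.64, 3.66 and 3.71% in the same order. At C the following base separated more, with 5.35% before C and 1.47% before G. Where the preceding base was not T, G exceeded A by 0.086 percentage points and lay 0.733 below C (difference -0.733), and where it was T, G exceeded A by 2.72 and C lay below A (difference -0.269). These subsets were chosen after the data were seen. Box C/D positions gave 6.34% and all other positions 6.67% at G after T, near the 6.70% of box H/ACA.

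**Figure D2:**
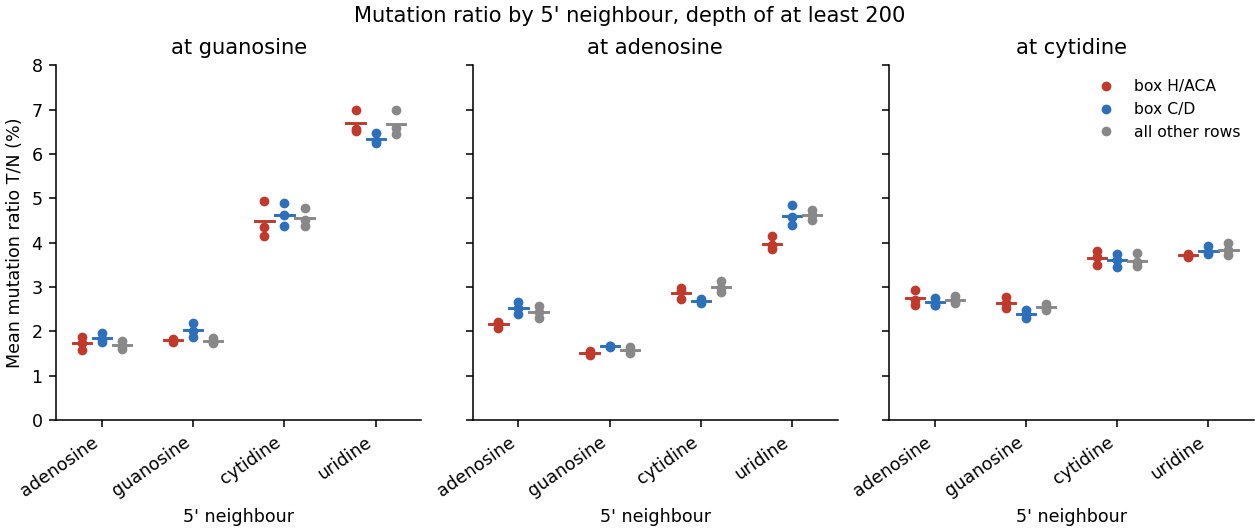
Mean mutation ratio (%) at guanosine, adenosine and cytidine by the preceding nucleoside, where depth was 200 or more, with 1 point per imbalanced dNTP library and a line at the mean. At guanosine the box H/ACA values rise from 1.73% after adenosine to 6.70% after uridine, and after uridine the means of the 3 classes of positions run from 6.34 to 6.70%.

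Each locus was then divided into zones to compare hairpins, hinge and tail within a base. The tail runs from the ACA box, or ANA where there was no ACA, to the 3′ end, and the hinge is the ANANNA with the highest predicted unpaired probability plus 3 nt on each side. Of 209 loci 163 had an ACA and 32 an ANA tail and 14 neither, and 18 had no H box, which left 180 loci with zones, 92 of them with listed positions. In 141 of the 180 the H box had a mean unpaired probability of at least 0.5 by RNAfold.

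At G the hinge had a lower ratio than the hairpins. The mean was 2.03, 2.14 and 1.70% in the hinge (1.96% ± 0.23, 37 positions of 12 loci), 4.15% ± 0.15 in the 5′ hairpin (211) and 4.23% ± 0.15 in the 3′ hairpin (225). The difference of -2.24 percentage points ± 0.133 between hinge and hairpins was negative in 3 of 3 libraries (exact test, adjusted p = 0.281). Per gene, G of the hinge was below G of the hairpins in all 3 libraries in 11 of 12 loci, and above it in SNORA50C. The preceding base differed between the zones: of the 37 hinge positions 21 followed A and 6 followed T, against 100 and 178 of 436 in the hairpins. After A the hinge had 1.24% and the hairpins 1.82%, after G 0.861 and 1.96%, after C 4.51 and 4.39%, and after T 5.08 and 6.81%. The hinge value after G rests on 8 positions and that after C on 2 (2.39% in SNORA71A and 6.63% in SNORA50C). Without positions after T the difference was -1.03 percentage points. At the N positions of the H box G had a mean ratio of 1.30% (16 positions).

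At A the hinge differed less, by -0.36 percentage points (2.17% ± 0.083, 58 positions), and at C by -0.37 (2.70% ± 0.17, 24), both negative in 3 of 3 libraries. By gene the hinge was lower in all 3 libraries at A in 6 of 13 loci and at C in 8 of 13, and higher in all 3 at A in 1 (SNORA71A) and at C in 3 (SNORA16A, SNORA2C and SNORA8). The 3 fixed A of the H box had 2.32, 1.97 and 2.61% from first to last. The 5′ and the 3′ hairpin differed by -0.085 percentage points at G, -0.20 at A and -0.16 at C, and the sign of each turned under at least 1 alternative setting.

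At A the tail had the highest ratio of the zones. Its mean was 4.78, 5.04 and 4.34% (4.72% ± 0.35, 21 positions of 9 loci) against 2.53% ± 0.034 in the hairpins, a difference of 2.19 percentage points ± 0.324 that was positive in 3 of 3 libraries (exact test, adjusted p = 0.281). By gene A of the tail was above A of the hairpins in all 3 libraries in 8 of 9 loci, the exception being SNORA48. Among the printed sequences the first A of the box gave 7.94% in SNORA8, 7.23% in SNORA63 and 6.94% in SNORA62. These were the highest of 9 loci, and SNORA24 was not among the 9. Over 9 loci the first A had 5.89% ± 0.42, from 3.22% in SNORA48 to 7.94% in SNORA8. The C of the box had 2.99% (8 loci) and the last A 4.20% ± 0.47 (8 loci), from 2.26% in SNORA16A to 7.68% in SNORA63. The first A followed T in 4 loci, with 7.24%, while hairpin A after T had 3.77% (64 positions) and hairpin A between T and C 4.44% (8). After C the first A had 5.06% (4 loci) and hairpin A between C and C 5.01% (13). At C the tail and the hairpins differed by -0.008 percentage points, and at G the tail exceeded the hairpins by 1.69 on 5 positions, a difference of -0.841 without genes that have a near copy elsewhere in the genome.

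**Figure D3:**
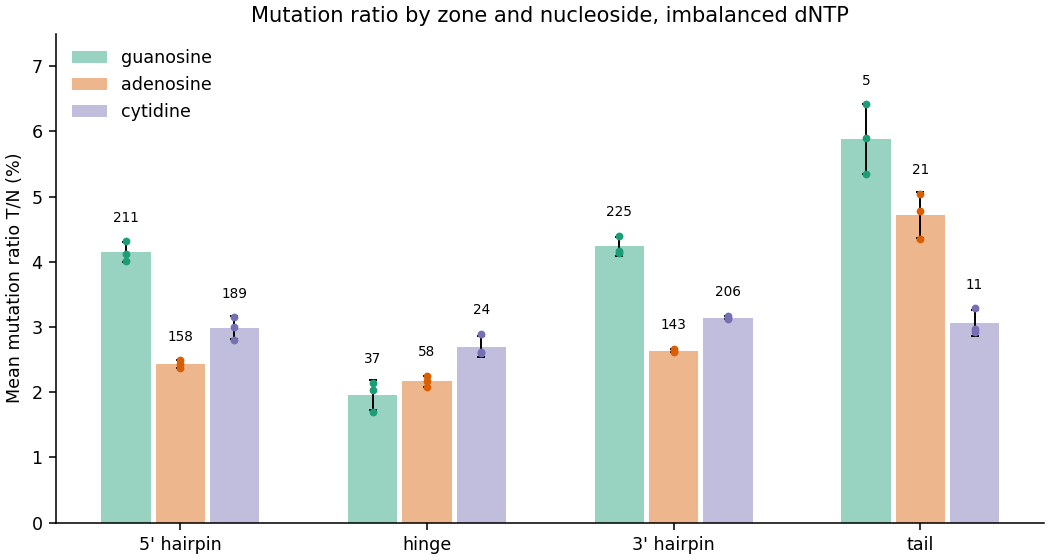
Mean mutation ratio (%) by zone and nucleoside, where depth was 200 or more. Bars give the mean of 3 imbalanced dNTP libraries, points the libraries, whiskers the SD and numbers the positions. Guanosine is lowest in the hinge (1.96%) and adenosine highest in the tail (4.72%).

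**Figure D4:**
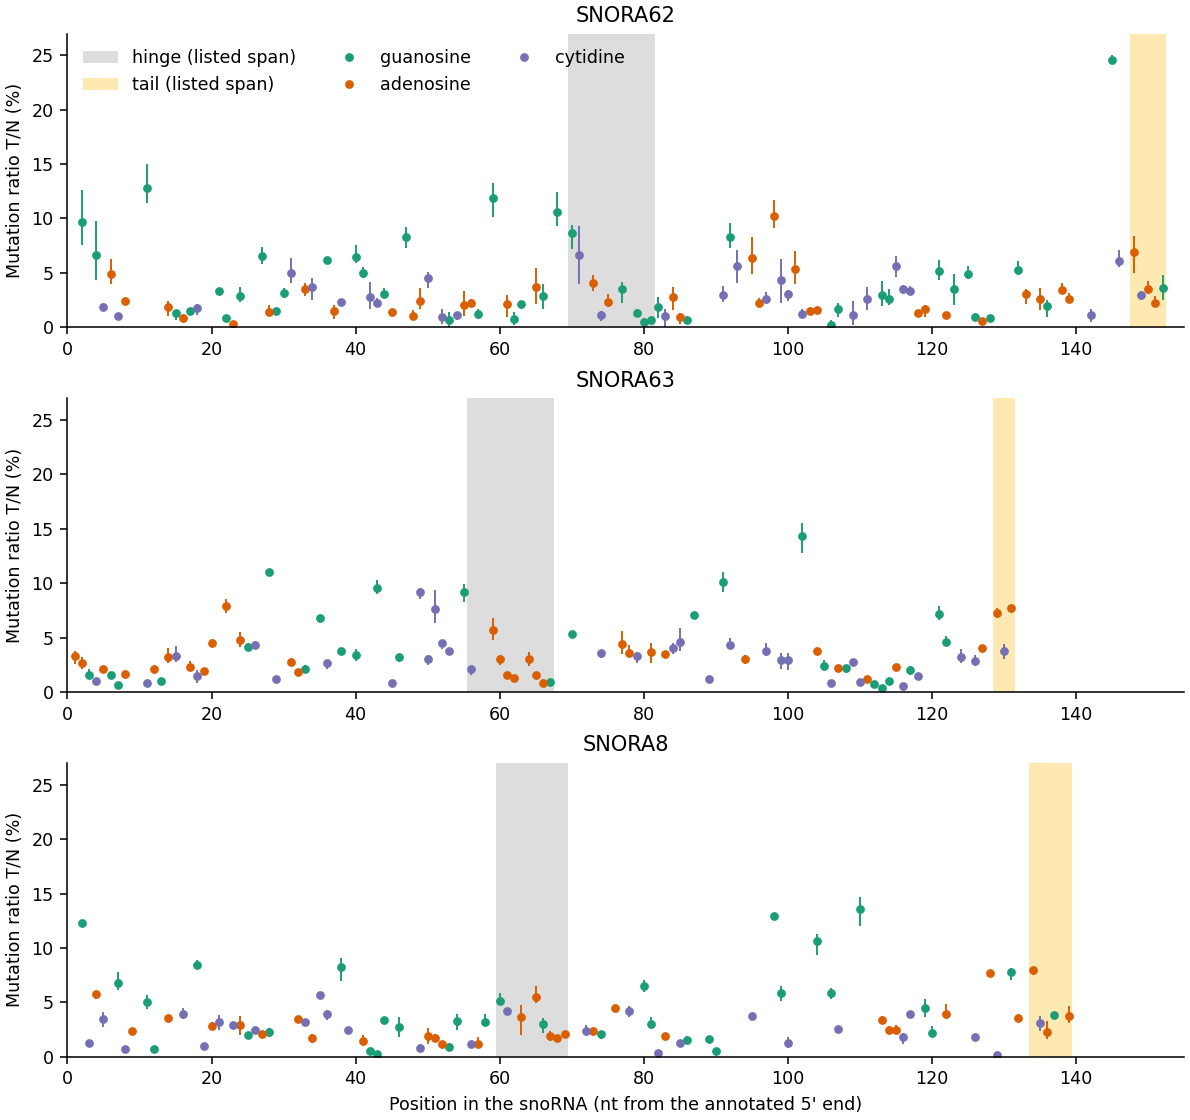
Mutation ratio (%) at each listed position of SNORA62, SNORA63 and SNORA8 by distance from the annotated 5′ end, as the mean (point) and range (line) of 3 imbalanced dNTP libraries, with the hinge in grey and the tail in yellow. The G near the 3′ end of SNORA62 stands at 24.6%, and the guanosine listed in the hinge of SNORA63 at 0.902%.

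Predicted pairing went with smaller differences. G predicted unpaired had 4.61% and paired 3.77%, and among G after T the values were 7.04 and 6.57%. For A they were 2.68 and 2.46% and for C 3.04 and 3.33%, so that C went the other way. After T, A had 3.90% unpaired and 4.07% paired, and C 3.67 and 3.74%.

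Set beside box C/D snoRNAs, the other large class, box H/ACA snoRNAs had a lower ratio at G by 0.53 percentage points. The difference was -0.534 ± 0.068 (589 and 995 positions) and negative in 3 of 3 libraries (exact test, adjusted p = 0.281). Of these G positions 37.7% in box H/ACA and 52.6% in box C/D followed T. After T the difference was 0.361 and without it -0.150. At A the classes differed by -0.008 and at C by 0.079 percentage points, and for either base the sign changed under several alternative settings.

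Called sites whose T/N was 0.1 or more in each library numbered 90 in 54 loci, 2.13% of the listed positions against a background of 1.69%. They were 71 G, 14 C and 5 A. Of the 71 G 66 followed T (93.0%), against 53.4% of all listed G, and 38 had T on both sides.

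Among called sites that reached 100 reads in every imbalanced library, the highest ratio was at the G at nt 145 of SNORA62 (chr3:39411198, agtaattcttGctacaagt), 3 nt before the ACA box, with 24.5, 25.0 and 24.3% T. Under balanced dNTP it had 1 of 936, 0 of 588 and 3 of 354 reads with T. The G at nt 115 of SNORA67 (chr17:7578069, tatttcctctGccttccttgg) had 20.6, 18.5 and 25.9%, and the G at nt 28 of SNORA71B (chr20:38425327, ttttgtccctGtattcgaaag) 18.4, 17.4 and 19.7%. All of these G follow T, and their libraries differ by less than their distance from the 3.96% mean of G. Under the same depth limit the highest C were nt 40 of SNORA48 (15.1% ± 3.40), nt 129 of SNORA71D (13.2%) and nt 107 of SNORA71A (13.2%). The highest A were nt 53 of SNORA31B (10.6%), the last A of the ACA box of SNORA57 (nt 146, 10.4%, not listed under balanced dNTP) and nt 98 of SNORA62 (10.2%), each followed by C.

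Between genes the mean ratio varied little where depth was high. Over 18 loci with at least 40 such deep positions it ran from 3.03% ± 0.088 in SNORA2C to 3.81% ± 0.16 in SNORA71B, with SNORA63 at 3.53% and SNORA8 at 3.49%. Neighbours in this order differed by less than the larger of their SDs. Over all listed positions the 19 loci with a mean depth of at least 200 had 3.08 to 3.99%, with 49.5 to 100.0% of their G, A and C listed, and the 35 loci with a mean depth under 100 had 4.11 to 11.5%, with 19.6 to 73.1% listed.

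The SNORA71 genes of SNHG17 allowed RNAs of similar sequence to be compared. SNORA71A and SNORA71B were identical at 86.3% of aligned bases, SNORA71A and SNORA71D at 86.3%, and SNORA71B and SNORA71D at 91.0%. Across 76 to 82 aligned positions, which share libraries and much of their sequence, Pearson's r of the ratios was 0.77, 0.64 and 0.78 in that order, as a description. The largest difference was at nt 32 of SNORA71A and SNORA71D. SNORA71A had 14.9, 15.5 and 16.2% (tgcctGtgcct) and SNORA71D 2.14, 4.52 and 1.30% (tgcctGtgccc), with the same 4 bases on either side. Under balanced dNTP SNORA71A had 1 of 1108, 0 of 735 and 1 of 748 reads with T there, and SNORA71D was not listed. The aligned base of SNORA71B is T, and reads shared between copies were not tested. SNORA71B is annotated at 272 nt.

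Loci with a near copy held few of the listed positions, but the sign of tail minus hairpins at G turned without them. The SNORA71 genes compared above fell short of the limit used and counted as without a near copy. By a match of at least 95% identity over 50 nt, 40 genes had a copy elsewhere in hg38, of which 9 loci with 243 listed positions had reads. A second locus named SNORA63 (chr5:40654963-40655094), 93.1% identical over the aligned bases to the deep SNORA63, had 17 listed positions and 2 called sites. At its position 46, counted from the 5′ end, hg38 differs by A46G (the copy's base first), and its reads were mostly G (9, 6 and 9 reads) or T (8, 5 and 5) and A in 0, 1 and 0. This position, at 12 to 17 reads, was called. At nt 46 of the deep SNORA63 2.77, 3.35 and 3.45% of reads had T. At nt 119 of SNORA20 all reads of the imbalanced libraries had T (36, 22 and 21), as did 71 of 72, 44 of 44 and 29 of 29 under balanced dNTP, and it was not called.

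Depth was lower in the tail than in the hairpins taken whole, and the 5′ end was not compared on its own. Under imbalanced dNTP SNORA62 had 342, 254 and 199 reads at nt 2 and 510, 419 and 237 at nt 152. SNORA63 had 1275, 1062 and 1128 reads at nt 1 and 1074, 929 and 1130 at nt 131. The tail over the hairpins had a mean log2 ratio of listed depths of -0.80, -0.86 and -0.80 under imbalanced dNTP (-0.82 ± 0.032, 57 loci) and -0.96 ± 0.045 under balanced dNTP (36 loci), negative in all 3 libraries in 46 of 57 and 35 of 36 loci. The hinge over the hairpins had -0.25 ± 0.021 (67 loci, 33 below and 15 above 0 in all 3 libraries) and -0.30 ± 0.008 (70 loci, 44 and 7). The 3′ over the 5′ hairpin had a mean of -0.09 (85 loci, 33 below and 31 above 0 in all 3 libraries) and 0.01 (82 loci, 30 and 26). Single loci ran from -2.83 to 1.23 under imbalanced and from -1.36 to 2.20 under balanced dNTP. In the loci listed in both groups the imbalanced minus balanced difference was 0.14 ± 0.028 for the tail (32 loci, positive in 3 of 3 pairs), -0.04 for the hinge and -0.03 for the hairpins. The called share was 30.9% of G, A and C in the 5′ hairpin, 21.3% in the hinge, 29.9% in the 3′ hairpin and 22.8% in the tail, over 63 loci with at least 20 listed positions.

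**Figure D5:**
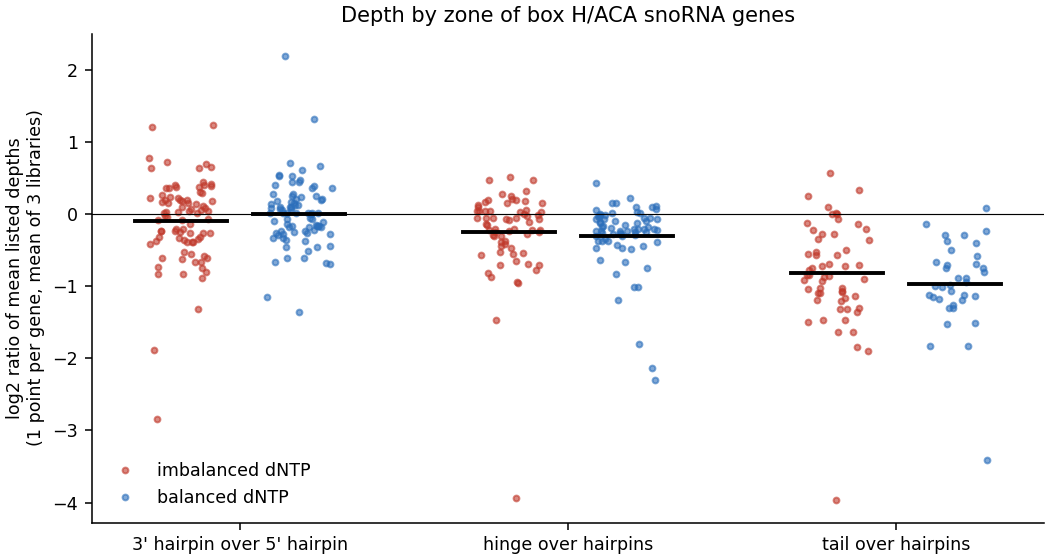
Log2 ratio of mean listed depths between zones, with 1 point per gene (mean of 3 libraries) and a black line at the mean over genes, for imbalanced and balanced dNTP. The tail lies below the hairpins in most genes (means of -0.82 and -0.96). For the 3′ over the 5′ hairpin the mean over genes lies near 0, while single genes lie on either side of it.

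Depth inside the gene was set against the 100 nt on either side. Inside exceeded the flanks by a log2 of 2.26, 2.22 and 1.97 under imbalanced dNTP (2.15 ± 0.16, 10 loci) and by 3.82 ± 0.27 under balanced dNTP (23 loci), in 3 of 3 libraries each. In 9 of the 10 loci it was positive in every imbalanced library, from 0.56 in SNORA28 to 5.71 in SNORA8, with 3.08 in SNORA63 and 2.70 in SNORA21, while SNORA12 averaged 0.19 with mixed signs. Of the 67 loci with at least 20 listed positions 59 had fewer than 3 in the flanks, so the loci compared are those with listed flanks. The median over loci was 2.78 in the 6 that overlap an annotated exon of the host and 0.80 in the other 4.

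Finally, the depth of whole loci was compared between the groups over positions listed in both. Of 59 box H/ACA loci tested 23 were lower under imbalanced dNTP (39.0%, against 24.2% of all 559 genes tested) and 1 was higher (against 15.2%), by edgeR's quasi-likelihood test with Benjamini-Hochberg adjustment. The median log2 change was -0.15 over these loci, -0.03 over all genes and 0.07 over 98 box C/D genes, of which 18 were lower and 31 higher. SNORA50C had a mean depth of 472, 376 and 366 reads under imbalanced and 1427, 890 and 755 under balanced dNTP, and its log2 change relative to the libraries was -0.71 ± 0.056 (SE, adjusted p = 6.7e-06 by edgeR). SNORA24 had -0.54 ± 0.054 (adjusted p = 3.6e-05) and SNORA71C, on 9 shared positions, -0.85 ± 0.096 (9.5e-05). SNORA80A fell by 0.52 and SNORA84 by 0.50 on the log2 scale, on 6 and 5 positions, and SNORA81 rose by 0.28 ± 0.090 (adjusted p = 0.034). At SNORA63 the log2 change was 0.02 and at SNORA8 -0.03, with adjusted p of 0.85 and 0.75. Without the replicate block SNORA50C, SNORA24 and SNORA71C were the 3 loci that stayed lower (adjusted p = 0.016, 0.019 and 0.016), and without replicate 1, 2 or 3 there were 14, 16 and 25 lower loci. The call of SNORA81 was lost without replicate 1 (adjusted p = 0.12), replicate 2 (0.26) or the replicate block (0.69) and with DESeq2 (0.0501), and that of SNORA80A without replicate 2 (0.12).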

How the data were processed

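The members and the lists of genes were chosen with earlier results of these data known. Nm-mut-seq was measured in caRNA of HepG2 in 3 replicates with imbalanced and balanced dNTP, sequenced as single reads of 100 bases. Before deposit the authors used Cutadapt for trimming, BBMap to drop duplicates by molecular identifier, TopHat2 for alignment to hg38 and JACUSA for base counts. The tables they deposited hold raw read counts per base, position and library, from which T/N was computed here. A score per position from JACUSA, deposited by the authors in the same tables, was not used. Positions were joined to GENCODE release 44, and 0 rows differed from hg38. The criterion of the study on background ratios was not applied.

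Counts of T and other reads per position, and depth per gene over shared positions (at least 5, TMM), were fitted with edgeR 4.0.16 in R 4.3.3 on all features, with the replicate number as a block. The extraction protocol in the labels divides the ligated product over both reactions, which is the basis of the pairing. Deviations of same-numbered libraries correlated at 0.75, 0.59 and 0.87 over 24432 positions, but those of imbalanced replicate 1 with balanced 2 (0.70) and of imbalanced 2 with balanced 1 (0.60) did so as well, so that only replicate 3 was set apart by this check. Fisher's exact test and DESeq2 1.42.0 served as alternatives. On simulated data 57.5% of 200 positions changed 4-fold were recovered among 32284 with 1 unchanged position called, and 100% of 200 genes changed 2-fold among 559 with 6 unchanged genes called. The simulations held no replicate effect on single positions or genes, so recovery with such an effect was not measured. Every scaled depth change between the groups named above was smaller than 2-fold, and recovery at such sizes was not measured. RNAfold 2.7.2 and blastn 2.17.0 gave pairing and copies. Zone, base and class values were compared by exact paired permutation (sign flip) over 3 libraries, two-sided.

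Named were the 10 deepest loci, the 10 with most called sites, the 3 sites with the highest ratio per base at a depth of at least 100, every site with a ratio of at least 0.2 in all libraries, up to 5 genes each way in the depth test, and SNORA62 to SNORA65, SNORA70, SNORA71 and SNORA74 genes with older names. A locus that this rule names is not reported here, though it stays in all counts and means. Other named genes illustrate a printed range or sequence. Alternatives covered depth minimums, pooled reads, near copies, zone limits, filters, tools and each replicate left out. The range of depth per library is given with the results, and intervals cover counting error only.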

Additional observations from a re-analysis of the deposited data

How the results depend on the processing

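Of 293 alternative values of the comparisons with an exact test 263 kept their direction and 30 turned, and no exact test could reach p under 0.05. Leaving out each replicate, the count of called sites was 2203 to 2462 (2033 in all), of positions with a changed ratio 1248 to 1430 (1818) and of loci with a changed depth 14 to 27 (24), with 14 without replicate 1. Without the replicate block 1951 positions and 3 loci were called. At least 20 shared positions gave 13 loci and at least 1 gave 36. Ratio minimums of 0.05 and 0.1 left 503 and 90 called sites, and Fisher's exact test in each replicate 1089 positions.

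In percentage points, G minus C was -0.733 without T before the site and C minus A -0.269 with it. For G, tail minus hairpins was -0.423 at a depth of at least 500 and -0.841 without near copies, and 5′ minus 3′ hairpin 0.022 at a depth of at least 100 and 0.184 with an unpaired H box. For A the latter was 0.131 at a depth of at least 500. For C, tail minus hairpins was 0.298 at a depth of at least 500, 0.198 with pooled reads, 0.112 with each gene counted once, 0.194 without T before the site, 0.019 with an unpaired H box and -0.085 to 0.035 over replicates left out, and 5′ minus 3′ hairpin 0.079, 0.063 and 0.0079 under the first 3 of these. Box H/ACA minus box C/D was 0.361 at G after T. At A it was 0.077 with pooled reads, 0.013 with each gene counted once, 0.040 without T before the site and -0.030 to 0.0075 over replicates left out. At C it was -0.036 and -0.184 at a depth of at least 100 and 500, -0.169 with pooled reads and -0.103 after T. The log2 depth of hinge over hairpins, imbalanced minus balanced, was 0.0019 with the H box alone and 0.059 as a median. For 3′ over 5′ hairpin the balanced value was -0.0031 as a median and -0.015 without near copies, and the difference 0.012 as a median. The unpaired H box and the preceding T were chosen after seeing the data. The cause of each change was not tested.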
